A study of Drosophila melanogaster with 2 samples.

Results

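Coding exon candidates are the regions of a Gcm2 ChIP-seq candidate list whose summit, the point of strongest signal, lay in annotated protein-coding sequence (CDS) and more than 500 bp from every annotated transcription start site (TSS). They numbered 4932 of the 30000 candidates called by the authors on both replicates pooled. Chromatin came from whole Drosophila melanogaster embryos of mixed sex, collected from 0 to 24 h, of the transgenic strain gcm2-GFP. The line stably expresses Gcm2 (glial cells missing 2) fused to GFP at its C terminus from an inserted construct, and chromatin was precipitated with an antibody against GFP after sonication to 200 to 800 bp. The 2 libraries, biological replicates 2 and 3, share this genotype, age and treatment and form 1 group. The labels name no cell type or driver beyond the whole organism, and no control list was analysed here, so the candidates were compared with other candidates and with the coding genome, without a test.

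Gcm and Gcm2 are paralogous transcription factors with a zinc-containing GCM domain. In the fly embryo they switch neural precursors towards glia, and they also act in the development of blood cells (hemocytes). ChIP-seq finds the DNA that a factor contacts from the pile-up of precipitated fragments. A transcription factor is usually looked for at promoters and enhancers, which in the fly lie mostly in noncoding sequence. Coding exons are richer in G and C than introns, above all at the third codon position, where base changes often leave the protein unchanged.

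The sequences below show the centres of some of the strongest coding exon candidates. In each, the annotated reading frame runs through the point of strongest signal, and in some it ends nearby. Whole regions are wider, and 42.0% of all coding exon candidates lay wholly in CDS. The following are 101 bases centred on the summit, read 5′ to 3′ on the coding strand of the host gene from the Release 6 genome sequence of RefSeq (dm6), with coding bases in capitals and noncoding bases in lower case. They belong to 4 of the 5 coding exon candidates that the authors' final list retained.
Pde1c (2L:11816551-11816651, minus strand): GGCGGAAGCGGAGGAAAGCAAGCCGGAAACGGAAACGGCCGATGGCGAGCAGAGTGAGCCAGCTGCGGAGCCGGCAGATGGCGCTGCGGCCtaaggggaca
klar (3L:506124-506224, minus strand): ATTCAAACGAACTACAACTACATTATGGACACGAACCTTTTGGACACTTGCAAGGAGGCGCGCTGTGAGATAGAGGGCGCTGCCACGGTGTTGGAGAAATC
scrib (3R:26567060-26567160, plus strand): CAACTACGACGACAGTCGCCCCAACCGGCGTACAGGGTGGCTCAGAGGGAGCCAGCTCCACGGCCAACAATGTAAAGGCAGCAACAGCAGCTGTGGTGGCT
CG10357 (3L:3616483-3616583, plus strand): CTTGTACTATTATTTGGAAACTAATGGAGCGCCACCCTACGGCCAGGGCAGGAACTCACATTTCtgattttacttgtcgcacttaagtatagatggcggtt
The klar and scrib windows were coding throughout, while those of Pde1c and CG10357 ran past the stop codon. The tagged gene, gcm2, held 3 coding exon candidates of its own, shown in the same way because the inserted construct carries the same coding sequence.
gcm2, coding exon 2 (2L:9611086-9611186, plus strand): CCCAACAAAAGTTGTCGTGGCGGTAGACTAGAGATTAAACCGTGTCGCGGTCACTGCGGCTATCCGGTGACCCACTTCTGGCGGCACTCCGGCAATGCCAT
gcm2, coding exon 4, upstream region (2L:9611802-9611902, plus strand): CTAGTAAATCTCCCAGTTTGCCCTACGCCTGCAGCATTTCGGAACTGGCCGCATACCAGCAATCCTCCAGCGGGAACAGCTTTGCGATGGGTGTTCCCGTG
gcm2, coding exon 4, downstream region (2L:9612007-9612107, plus strand): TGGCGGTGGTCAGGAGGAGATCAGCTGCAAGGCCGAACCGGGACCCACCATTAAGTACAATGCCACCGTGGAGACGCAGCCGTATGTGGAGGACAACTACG
The last 2 of these regions overlap each other, so they are not independent.

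Coding exons held a small share of strong regions and a large share of weak ones. The authors' final list, made by irreproducible discovery rate (IDR) analysis, held the strongest pooled candidates by signal, and it retained 5 coding exon candidates, or 0.101% (95% Wilson interval 0.0433 to 0.237), against 7.26% of all candidates. A further 5 overlapped a retained region without being retained. A deposited q-value at or below 0.05 was found for 169 coding exon candidates (3.43%), against 22.7% of all candidates. The share of coding exon candidates among candidates rose from 0.367% in the 3000 strongest (11 regions) to 24.1% in the 3000 weakest. Their signal, which is the authors' enrichment value and is used here to rank regions within a list, ran from 13.6 to 299 with a median of 17.7, and their median rank was 19701 against 13739.5 for all other candidates. Ranks above 15000 held 3496 of them (70.9%).

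The same shape appeared in each replicate's own list of 30000 candidates. Coding exons held 4086 summits in replicate 2 (13.6%, 13.2 to 14.0) and 5698 in replicate 3 (19.0%, 18.6 to 19.4), a mean of 16.3% ± 3.80 (SD, n = 2). The share rose from 0.367% to 20.5% across the rank bins of replicate 2 and from 1.00% to 25.7% across those of replicate 3, and replicate 3 was higher in each of the 10 bins. The median rank was 19707.5 in replicate 2 and 18444.5 in replicate 3. A q-value at or below 0.05 was found for 213 of them in replicate 2 (5.21%, against 24.6% of its list) and 334 in replicate 3 (5.86%, against 21.5%). Candidates in replicate 3 were also richer in GC over the whole list, with a mean of 45.2% within 100 bp of the summit against 43.3% in replicate 2. These means include the coding exon candidates, and outside coding exons they were 42.9% in replicate 3 and 41.6% in replicate 2. The part of this GC difference in the larger coding share was not tested.

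**Figure D1:**
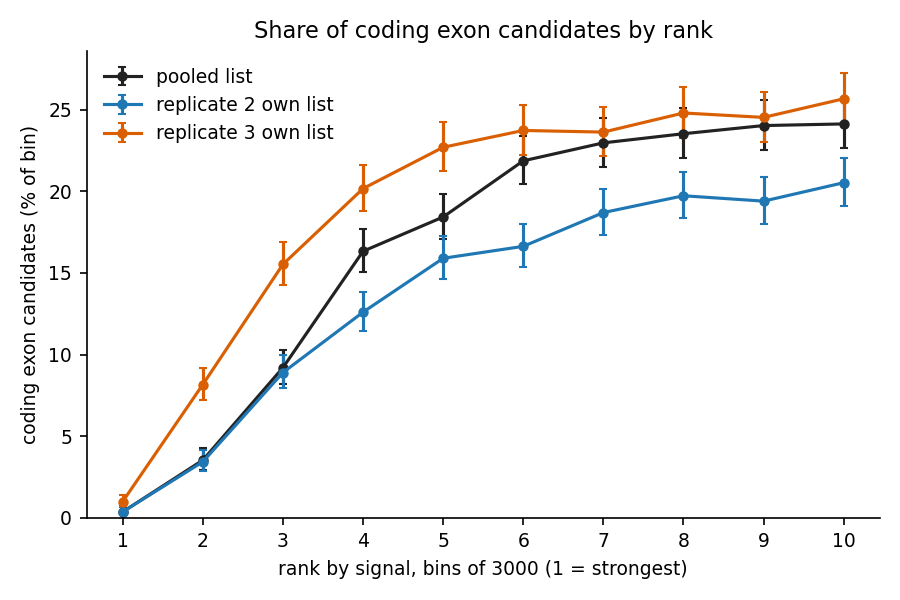
Share of candidates whose summit lay in a coding exon over 500 bp from a TSS (y axis, %) in bins of 3000 candidates ranked by signal (x axis, 1 = strongest), for the pooled list and each replicate's own list; bars are 95% Wilson intervals of counting error. In the pooled list the share climbs from 0.367% to 24.1%, and replicate 3 lies above replicate 2 in each bin.

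By length of sequence, candidates as a whole were denser in coding exons than in introns, while the better supported ones were sparser there. Coding sequence over 500 bp from a TSS made up 18.6 Mb, or 13.9% of the 133.9 Mb examined, and held 265 candidates per Mb in the pooled list (220 in replicate 2 and 306 in replicate 3). Promoters, within 500 bp of a TSS, held 545 per Mb, introns 191, intergenic sequence 105 and all sequence 224. Candidates with a q-value at or below 0.05 numbered 9.08 per Mb in coding exons and 40.9 in introns, those retained by IDR 0.269 and 12.4, and those with a summit within 100 bp in both replicates 47.6 and 63.5. The edge set by the TSS rule was smooth: coding summits 401 to 500 bp from a TSS numbered 329 with a median rank of 17509, and those at 501 to 600 bp, just inside, numbered 348 with a median rank of 16681. The density was 310 per Mb on chromosome arm 2R, 282 on 3R, 269 on 3L, 245 on 2L, 222 on X and 125 on the small chromosome 4, whose 32 coding exon candidates lay in coding sequence of lower GC (39.95% against 51.1 to 54.1% on the other arms). X, the next lowest in density, had the highest coding GC of the arms.

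The strongest coding exon candidate (2R:20884462-20884752) lay in the seventh and last coding exon of otp (FBgn0015524), which encodes the homeodomain factor Orthopedia. Its signal was 299 (rank 60) in the pooled list, 156 (rank 63) in replicate 2 and 146 (rank 60) in replicate 3, so both replicates placed it among their strongest. The next (2L:11816527-11816658) lay at the end of the last coding exon of Pde1c (FBgn0264815), a calcium- and calmodulin-dependent cyclic nucleotide phosphodiesterase, with signal 121 (rank 513), and it ranked 632 in replicate 2 and 340 in replicate 3. These regions were 291 and 132 bp wide, whereas the other 4930 coding exon candidates were 464 bp wide each.

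The remaining retained regions were of the common width. The candidate in klar (FBgn0001316, 3L:505942-506405), which encodes a protein of the nuclear envelope that moves nuclei and organelles, had signal 91.0 (rank 882) and ranked 875 in replicate 2 and 1353 in replicate 3. Its exon belongs to 44.4% of the gene's coding transcripts, so in the others the summit is not coding. The candidate in scrib (FBgn0263289, 3R:26566878-26567341), a scaffold protein of epithelial polarity, had signal 77.5 (rank 1230) and ranked 1153 and 1477 in replicates 2 and 3. The candidate in CG10357 (FBgn0035453, 3L:3616301-3616764) had signal 59.6 (rank 2038) and ranked 1384 in replicate 2 but 3955 in replicate 3. Hence 4 coding exon candidates, those in otp, Pde1c, klar and scrib, matched the strongest regions of both replicates, taken as many from each as the final list holds, against 4.65% of all pooled candidates.

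Below the retained regions the replicates often ranked the same region differently. The next by signal lay in eEF2 (FBgn0000559, 2L:21680998-21681461), which encodes a translation elongation factor, with signal 56.6 in the pooled list, 17.5 (rank 6652) in replicate 2 and 42.1 (rank 1024) in replicate 3. In Calr (3R:9628923-9629386), the gene for the endoplasmic reticulum chaperone calreticulin, the ranks were 12825 and 1753. In Myd88 (2R:9307441-9307904), an adaptor of Toll signalling, they were 12271 and 1464. In hry (3L:8677788-8678251), which encodes the pair-rule repressor Hairy, they were 21771 and 1629. Each of these regions was ranked higher by replicate 3 than by replicate 2. The rest of the 15 strongest lay in ATPsynbeta, vvl, aay, Ggt-1, Hrb27C and RpS2, with pooled signal from 46.1 to 50.2. Among them RpS2, a ribosomal protein gene, ranked higher in replicate 2 (3093) than in replicate 3 (5778), and so did Ggt-1 (4592 and 5230), while the other 4 ranked higher in replicate 3. The summits in eEF2 and aay lay 530 and 548 bp from a TSS, close to the edge of the promoter class, and the summit in aay also lay within Atat, a gene on the opposite strand.

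Support in the replicates fell with rank in coding exon candidates and in the others. A summit within 100 bp was found in both replicates' own lists for 885 coding exon candidates (17.9%, 16.9 to 19.0), against 33.9% of all candidates. Replicate 2 alone held a summit for 1267, replicate 3 alone for 1850 and neither for 930. Within rank bins the difference between the classes was smaller and of either sign. In ranks 6001 to 9000, 58.0% of coding exon candidates (52.1 to 63.7) and 58.0% of other candidates (56.1 to 59.8) were supported in both replicates. Coding exon candidates were higher in ranks 9001 to 12000 (46.1% against 41.6%) and lower in ranks 21001 to 24000 (4.53% against 7.32%) and 24001 to 27000 (1.53% against 3.03%). In ranks 27001 to 30000 the shares were 1.11% (0.561 to 2.17) and 1.67% (1.22 to 2.28). The 2 libraries took unequal parts in this. In ranks 12001 to 15000, replicate 2 supported 54.3% of coding exon candidates and 62.2% of other candidates, and replicate 3 supported 67.5% and 60.8%. The replicates are also parts of the pooled list, so their support is not independent of its ranks.

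**Figure D2:**
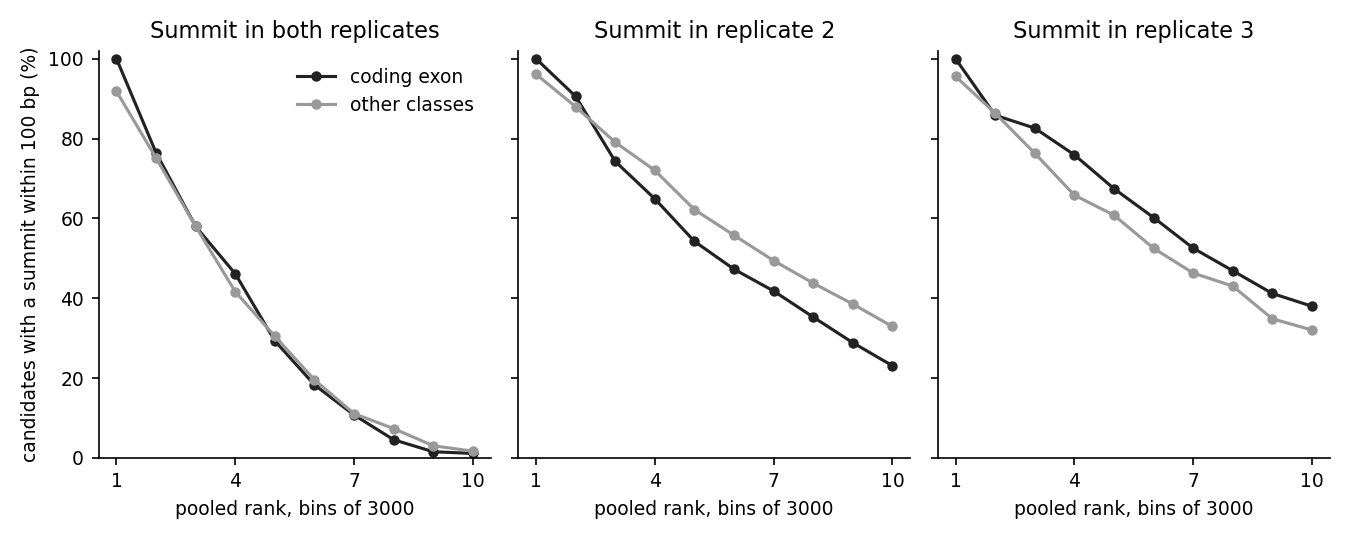
Share of pooled candidates with a summit within 100 bp in both replicates' own lists, in replicate 2 and in replicate 3 (y axes, %), by bins of 3000 pooled ranks (x axes, 1 = strongest), for coding exon candidates and candidates of other classes. Support in both replicates falls with rank in the 2 classes, with coding exon candidates above the others in ranks 9001 to 12000 and below them from rank 12001 on, while from the third bin on coding exon candidates lie below the others in replicate 2 and above them in replicate 3.

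Where both replicates held a summit, their ranks were nearly unrelated in coding exons. The Spearman rho between the ranks of replicate 2 and replicate 3 was 0.11 over 885 coding exon candidates and 0.64 over 9278 other candidates, both across regions of the same 2 libraries. The medians were 17926 and 15256 in coding exons and 6904 and 7052.5 elsewhere, so coding exon candidates spanned fewer strong ranks. Among pooled ranks 1 to 10000 alone rho was -0.18 for 320 coding exon candidates and 0.57 for 6901 others. Among ranks 10001 to 20000 it was -0.25 and -0.22. The pooled rank is made from both replicates, so within a limited pooled range their ranks are not free of each other.

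Within coding sequence, candidates followed GC content. Mean GC within 100 bp of the summit was 55.1% ± 6.21 (SD over 4932 regions), against 51.9% ± 7.14 over a coding grid, which is every 200th genome position that met the same rule (92989 points). Replicate 2 gave 53.9% and replicate 3 gave 55.3%, a mean of 54.6% ± 1.02 (SD, n = 2), so both lay above the grid. Promoter, intron and intergenic candidates averaged 43.4, 41.1 and 41.9%. All codon positions took part: GC was 58.2, 43.5 and 67.8% at codon positions 1, 2 and 3 near summits, against 55.7, 41.8 and 63.1% on the grid. The ratio of observed to expected CpG was 0.873 in coding exon candidates and 0.872 on the grid.

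The density of coding exon candidates rose with GC from 72.2 per Mb of coding sequence under 40% GC, through 245 at 50 to 55%, to 562 at 65% or more. Replicate 3 rose from 68.0 to 664 per Mb over the same bins. Replicate 2 rose from 107 to 339 at 60 to 65% GC and stood at 300 in the top bin, which held 112 of its candidates. Signal hardly varied with GC: the Spearman rho between GC and pooled signal was 0.055 across 4932 coding exon candidates, and the median rank was 21159 under 40% GC and 20420.5 at 65% or more. In candidates of other classes the relation ran the other way, with a rho of -0.15. At equal GC, coding exon candidates were weaker than intron candidates: between 50 and 55% GC, 2.11% of 1281 coding exon candidates and 10.6% of 974 intron candidates had a q-value at or below 0.05.

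**Figure D3:**
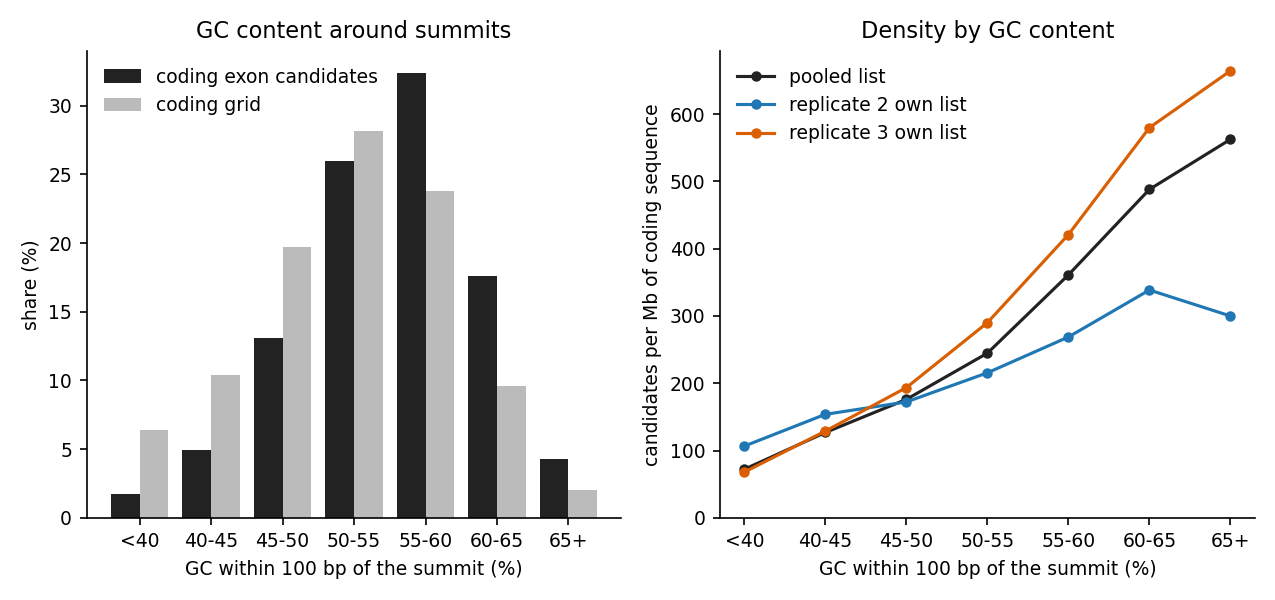
Left, share (y axis, %) of coding exon candidates and of coding grid points by GC content within 100 bp of the summit or grid point (x axis, %). Right, coding exon candidates per Mb of coding sequence (y axis) in the same GC bins for the pooled list and each replicate's own list; the pooled density goes from 72.2 to 562 per Mb, and replicate 2 falls back in the top bin.

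Because GC varies along genes, each position is given beside the density read from GC alone, that is, the density of each GC bin averaged over the grid points at that position. First coding exons held 377 candidates per Mb against 298 from GC, and internal coding exons held 226 against 253. Last coding exons held 297 against 275, and single coding exons held 305 against 280. First, last and single coding exons exceeded internal ones in both replicates' own lists, at 300, 244 and 257 against 190 per Mb in replicate 2 and at 415, 325 and 342 against 275 in replicate 3. Internal coding exons also lie farther from TSSs. The median distance on the grid was 2471 bp in internal, 1185 in first, 1626 in last and 979 in single coding exons. Exon class and TSS distance were not separated here. In shares, 13.6% of coding exon candidates lay in first, 48.4% in internal, 28.6% in last and 9.39% in single coding exons, where the grid had 9.55, 56.7, 25.6 and 8.15%.

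Distance to the TSS, which differs between these exon classes, also ordered the densities. They fell from 366 per Mb at 501 to 1000 bp, to 297 at 1 to 2 kb, 226 at 2 to 5 kb, 175 at 5 to 10 kb and 98.7 beyond 10 kb, while the densities read from GC stayed between 251 and 277. Replicate 2 fell from 321 to 77.8 and replicate 3 from 396 to 127 per Mb. Along the CDS the density was 359 per Mb in the first 10% of the coding sequence, 232 at 60 to 70% and 262 in the last 10%. Coding exons of 500 to 1000 bp held 324 per Mb, those under 200 bp 192 and those of 5 kb or more 85.0, where GC gave 290, 181 and 217. The region lay wholly in CDS for 2071 (42.0%), and the summit lay in the CDS of every annotated coding transcript of the host gene for 87.0%, against 85.7% of the grid. The 50 bases at the summit recurred elsewhere in the genome for 0 of 4932, which allows a share of up to 0.0608%, against 1.71% of the grid. Whether reads from repeated sequence were kept is not known here, so this difference cannot be read as a trait of the candidates.

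**Figure D4:**
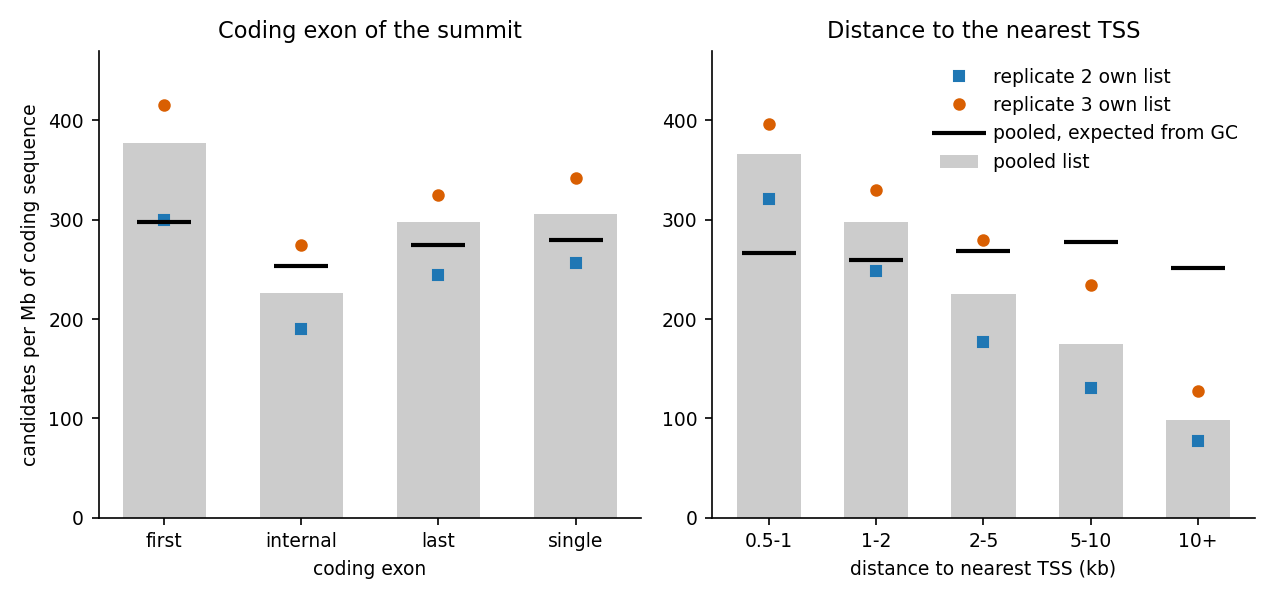
Coding exon candidates per Mb of coding sequence (y axis) by the coding exon that holds the summit (left) and by distance to the nearest TSS in kb (right); grey bars are the pooled list, squares and circles each replicate's own list, and black dashes the pooled density read from GC alone. First coding exons reach 377 per Mb, and the density falls from 366 near TSSs to 98.7 beyond 10 kb.

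The consensus of GCM domain factors was searched as 4 octamers, ATACGGGC, ATACGGGT, ATGCGGGC and ATGCGGGT, on either strand of the 201 bases centred on the summit. They matched at 118 coding exon candidates (2.39%, 2.00 to 2.86) and at 1.59% of the coding grid. The replicates' own lists gave 2.20 and 2.12%, a mean of 2.16% ± 0.0559 (SD, n = 2), and intron and intergenic candidates gave 1.45 and 1.42%. The octamers are GC-rich and their share on the grid itself rose with GC. Within GC bins the share in coding exon candidates lay below the grid under 45% GC and above it from 45% on. It was 0 of 86 candidates, which allows a share of up to 3.49%, against 0.655% under 40% GC, 0.816% against 1.02% at 40 to 45%, 2.50% against 1.62% at 50 to 55%, 2.13% against 2.04% at 55 to 60% and 5.71% (12 of 210) against 2.68% at 65% or more. Of the 118, 3 had a q-value at or below 0.05, in tgo, Ehbp1 and pum, against 3.43% of coding exon candidates and 22.7% of all candidates, and the strongest, that in tgo, ranked 5812. Examples are shown on the coding strand with the octamer, or its reverse complement, in capitals.
tgo (3R:9017905-9017952, minus strand): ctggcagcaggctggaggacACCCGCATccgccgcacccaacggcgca
pum (3R:9218510-9218557, minus strand): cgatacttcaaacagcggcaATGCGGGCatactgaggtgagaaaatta
RpL35A (3R:5465859-5465906, minus strand): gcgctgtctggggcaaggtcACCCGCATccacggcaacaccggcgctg
The gene tgo encodes a bHLH-PAS factor and pum the RNA-binding repressor Pumilio. The summit of the tgo region (signal 33.8) lay 94 bp from its octamer and ranked 7741 in replicate 2 and 5096 in replicate 3. That of pum (signal 31.6) lay 42 bp away and ranked 6014 and 10299. That of RpL35A (signal 27.6), a ribosomal protein gene, lay 13 bp away and ranked 7430 and 11978. Other strong regions with an octamer had less support. Those in Ehbp1 (rank 6295) and CG6191 (rank 7958) had a summit within 100 bp in replicate 3, at ranks 7013 and 5707, and none in replicate 2. The region in 18w (rank 7965) had none within 100 bp, but the nearest summits lay only 101 bp away in replicate 2 and 103 bp in replicate 3.

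The repeat CAGCAGCAG, searched on either strand and in any reading frame, was the most frequent of the 6 motifs searched. It matched at 337 coding exon candidates (6.83%, 6.16 to 7.57) against 5.05% of the grid, 1.73% of intron candidates and 1.52% of intergenic candidates. At equal GC the difference from the grid was small and of either sign, 14.1% against 12.1% at 60 to 65% GC and 6.32% against 7.49% at 55 to 60%. In the CAG reading frame the repeat encodes glutamine runs, which are common in fly transcription factors. The regions in vvl, a POU-domain factor, and hry held it, shown with the repeat in capitals, and so did the strongest region, in otp.
vvl (3L:6792612-6792671, plus strand): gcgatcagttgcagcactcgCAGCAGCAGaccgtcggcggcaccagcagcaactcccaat
hry (3L:8678053-8678112, plus strand): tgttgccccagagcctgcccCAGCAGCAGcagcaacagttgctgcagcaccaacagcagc
The other motifs were GAGAGAG at 0.750% of coding exon candidates and 1.06% of the grid, TATCGATA at 0.101 and 0.177%, TAATTA at 2.31 and 2.99% and CAGGTAG at 2.21 and 1.91%. GAGAGAG and TAATTA, the letters bound by GAGA factor and by many homeodomains, matched far more often in intron candidates (4.42 and 13.6%) than in coding ones. Intron candidates averaged 41.1% GC against 55.1% in coding ones. These 2 motifs were not compared at equal GC or with intron sequence at large.

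Host genes numbered 3625 of the 12397 protein-coding genes with coding sequence over 500 bp from a TSS (29.2%). One candidate was held by 2684 genes and 2 or more by 941, and 27 genes held 5 or more. The replicates' own lists gave 3194 and 3949 host genes, of which 1818 were in both. Coding length went with the count, with a Spearman rho of 0.38 across genes, while the density was 0.346 per kb in genes with under 500 bp of such sequence, 0.376 at 500 to 1000 bp and 0.171 at 5 kb or more. Adjacent candidates lay within 1 kb of each other in 637 cases, so candidates of a gene can share fragments.

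The largest count was in lola, a BTB zinc finger gene with many alternative exons, whose 13 candidates lay in 11 coding exons over 43706 bp, with ranks from 6314 to 26470. Replicate 2 had 5 candidates of its own there and replicate 3 had 10. The cytoskeletal linker gene shot held 8 candidates, as did gukh, whose protein binds the synaptic scaffold Dlg. The junction protein gene pyd and the giant nesprin gene Msp300 held 7 each, and milt, CG17233, SNF4Agamma, klar and btsz held 6 each. Per kb, Msp300 (63805 bp of coding sequence) was sparse at 0.110 and the mitochondrial transport adaptor gene milt was densest among the 27 genes with 5 or more candidates at 1.41, against 0.265 over all genes. The next densest of the 27 were CG17233 (1.30), gukh (1.26), bdg (1.25), CG34126 (1.09), the RNA-binding protein gene larp (1.01), CG43736 (0.974), ssp3 (0.964), velo (0.951) and the collagen IV gene Col4a1 (0.937). Replicate 2 had 0 candidates of its own in CG17233 and replicate 3 had 4. Muc14A, the longest gene without a coding exon candidate, had 48255 bp.

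Host genes were grouped by function, and each group's density is given beside all genes. In the Gcm pathway, 5 of 6 genes held 10 candidates, 0.627 per kb (0.627 in replicate 2 and 0.689 in replicate 3), against 0.316 read from GC and 0.265 over all genes. A candidate was held by 83.3% of these genes (43.7 to 97.0), against 29.2% of all genes. Their median coding length over 500 bp from a TSS was 2401 bp, and 49.1% of all genes with 2 to 5 kb held a candidate. Without gcm2 the other 5 genes held 7 candidates, 0.495 per kb (0.565 in each replicate) against 0.317 from GC. None of the 10 was retained by IDR, against 7.26% of all candidates and 0.101% of coding exon candidates, and 1 had a q-value at or below 0.05, against 22.7 and 3.43%. That one was in the tagged gene itself: the candidate in coding exon 2 of gcm2 (FBgn0019809, 2L:9610904-9611367) had signal 33.4 (rank 5940) and ranked 7648 in replicate 2 and 8818 in replicate 3. The overlapping candidates in its last coding exon had ranks 8042 and 10684. The first had a summit within 100 bp in replicate 3 (rank 4947) and none in replicate 2, and the second ranked 14959 and 8777. The inserted gcm2-GFP construct adds copies of this sequence to the chromatin, and its part was not tested. The paralog gcm held 0 candidates in 1031 bp, in the pooled list and in each replicate.

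Known downstream genes of Gcm held the other candidates of that group. The ETS factor gene pnt held 1 (3R:23292135-23292598, rank 11332) with ranks of 10615 and 21870 in replicates 2 and 3 and a GCM octamer within 100 bp. The gene loco, a regulator of G protein signalling in glia, held 3, of which the strongest (rank 14149) ranked 12665 in replicate 2 and had no summit within 100 bp in replicate 3. The summit of this loco region lay 523 bp from a TSS, close to the edge of the promoter class. It was coding in a smaller share of the gene's coding transcripts than the 44.4% of klar, so in most of them it is not coding. The glial homeodomain gene repo held 1 (rank 14170), supported in replicate 2 at rank 21927, while the nearest summit of replicate 3 lay 101 bp away. The repressor gene ttk held 2, each supported in 1 replicate. In this group 3 of the 10 candidates, 2 in gcm2 and 1 in pnt, had a summit within 100 bp in both replicates, against 33.9% of all candidates and 17.9% of coding exon candidates.

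Of 18 glia genes, 9 held 14 candidates, 0.327 per kb (0.350 in each replicate) against 0.266 from GC. Besides pnt, loco and repo, which are also in the Gcm group, they were the septate junction genes Cont (rank 5616), Nrg (rank 9453) and Nrx-IV (rank 14556), the blood-brain barrier receptor gene moody (rank 9130), the glutamine synthetase gene Gs2 (rank 19605) and the sodium pump subunit gene nrv2 (rank 19980). Replicate 2 ranked the Cont region 5449 and replicate 3 ranked it 8366. Of 16 hemocyte genes, 5 (31.25%) held 14 candidates, 0.271 per kb (0.174 and 0.348) against 0.286 from GC. Among these Col4a1 held 5, the GATA factor gene srp 3 and zfh1 2. Median coding length over 500 bp from a TSS was 2098.5 bp in the glia group and 2715.5 bp in the hemocyte group. Of all genes with 2 to 5 kb of such sequence, 49.1% held a candidate.

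The highest density of a group was in cytosolic ribosomal protein genes, where 13 of the 55 genes that have such sequence, of 87 in all, held 14 candidates, 0.920 per kb (0.986 in replicate 2 and 0.854 in replicate 3) against 0.343 from GC. These genes are short, with a median of 227 bp over 500 bp from a TSS, and genes with under 500 bp had 0.346 per kb over all genes. A candidate was held by 23.6% of the 55, against 8.24% of all genes with under 500 bp and 29.2% of all genes. RpS2 (rank 3337), RpL32 (rank 7121) and RpL35A (rank 8488) were the strongest. Mitochondrial ribosomal protein genes had 0.515 per kb against 0.265 from GC, with mRpL45, mRpL37 and mRpL17 as the strongest hosts, but the replicates differed (0.301 and 0.773). So did translation factors with 0.484 (0.121 and 0.424) against 0.263, with eEF2, eIF3c and pAbp, and segmentation genes with 0.485 (0.202 and 0.525) against 0.394, with hry, cad and Kr. Glycolysis and core metabolism had 0.476 (0.448 and 0.392) against 0.336, with Pgi, FASN1 and Mdh2. Proteasome genes had 0.416 (0.352 and 0.384) against 0.303, with Prosbeta2R2, Rpn6 and Rpn2.

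Besides the glia and hemocyte groups, densities between those of proteasome genes and of all genes were found in 6 groups. Of these 6, only Hox genes lay below the density read from GC. Zinc finger and coactivator genes had 0.403 per kb against 0.322 from GC, with lola, tara and zfh1, and the Wnt and Hedgehog pathway had 0.365 against 0.282, with arr, ptc and Axn. Chaperones had 0.363 against 0.355, with Hsp68, Hsc70-4 and CCT1, and the receptor tyrosine kinase pathway 0.340 against 0.277, with InR, spi and S. Hox genes had 0.315 against 0.360, with Scr, lab and abd-A, and aminoacyl-tRNA synthetases 0.309 against 0.250, with HisRS, ThrRS and LysRS. InR, the insulin receptor gene, held the strongest of these (3R:21579902-21580365, signal 43.0), with ranks 5030 and 4751 in replicates 2 and 3. Polycomb and trithorax genes had 0.242 per kb against 0.274 from GC, with osa, Scm and kis. The Notch pathway, whose symbol Dl was not matched and is left out, had 0.234 against 0.307, with H, Su(H) and numb. Nuclear pore genes had 0.223 against 0.239, with Nup107, Nup214 and Nup154, and cytochrome P450 genes 0.221 against 0.217, with Cyp313b1, Cyp6a22 and Cyp4d14. Cuticle protein genes had 0.208 against 0.345, with TwdlG, Cpr92F and Cpr76Ba.

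The lowest densities were those of 7 further groups. Dynein heavy chains had 0.0690 per kb (0.0394 in replicate 2 and 0.0985 in replicate 3) against 0.241 from GC, with Dhc62B, Dhc64C and Dhc93AB as the strongest hosts. Odorant, gustatory and ionotropic receptors had 0.0712 (0.101 and 0.113) against 0.179. Of these, 11 of 179 genes, Ir48c, Gr63a and Ir21a first, held a candidate (6.15%, against 29.2% of all genes). Ion channels had 0.0991 (0.0661 and 0.0771) against 0.256, with Ih, sei and Ca-beta. Giant muscle and cytoskeleton genes had 0.120 against 0.203, with Msp300, shot and up. Atypical cadherin and polarity genes had 0.128 against 0.242, with scrib, shg and baz, and neuron and axon guidance genes 0.129 against 0.245, with robo1, sli and unc-5. Extracellular matrix genes had 0.137 (0.0832 and 0.226) against 0.288, with Ten-m, wb and Col4a1. Coding length differed too: the median over 500 bp from a TSS was 12550.5 bp in dynein heavy chains, 7519 in giant muscle and cytoskeleton genes, 5996.5 in cadherin and polarity genes and 5545.5 in extracellular matrix genes, against 1008 over all genes, and genes with 5 kb or more had 0.171 per kb as a whole. It was 769 bp in the receptors, and genes with 500 to 1000 bp had 0.376. In each of these groups both replicates' own densities also lay below the value of all genes in the same list, 0.220 in replicate 2 and 0.306 in replicate 3.

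**Figure D5:**
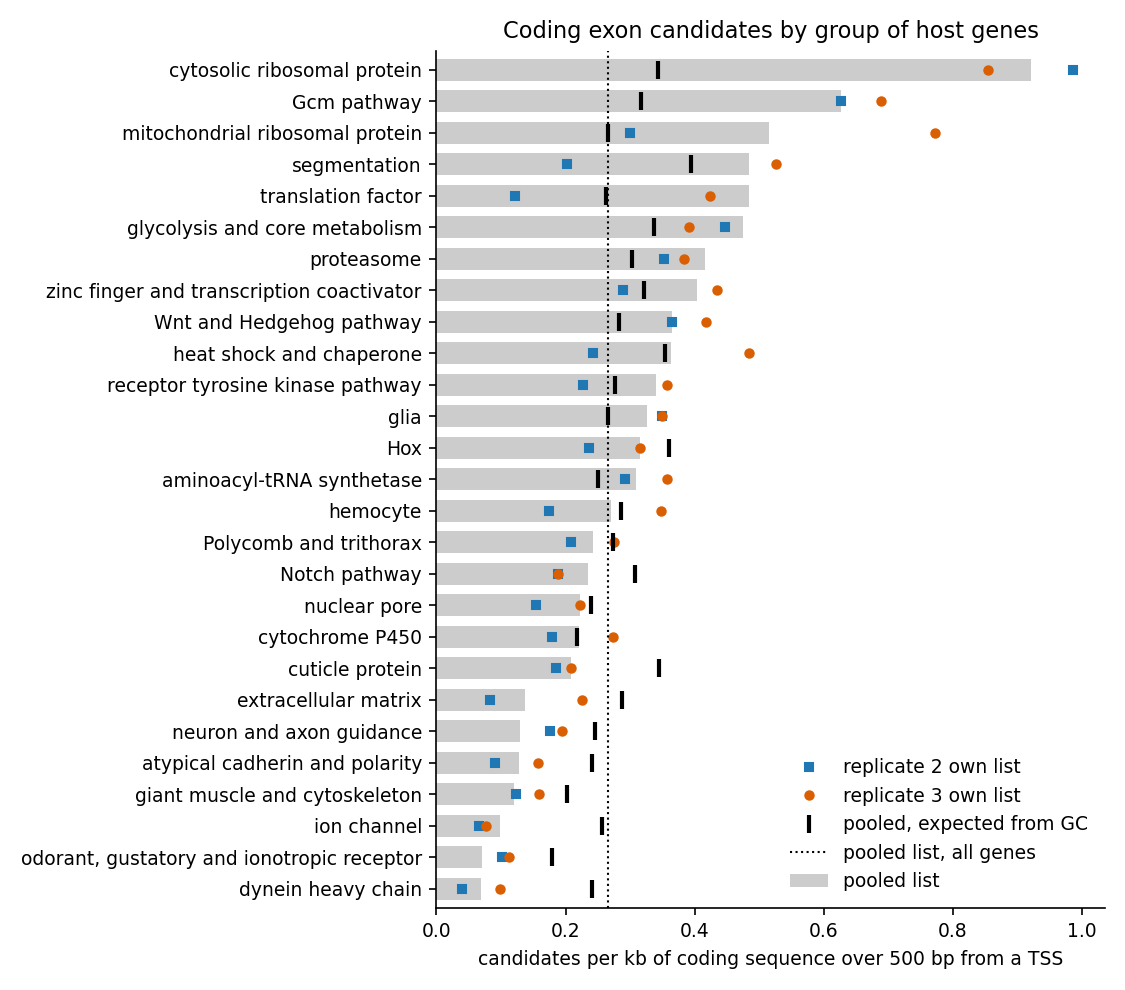
Coding exon candidates per kb of coding sequence over 500 bp from a TSS (x axis) for 27 groups of host genes (y axis); grey bars are the pooled list, squares and circles each replicate's own list, black ticks the pooled density read from GC alone and the dotted line all genes (0.265). Cytosolic ribosomal protein genes (0.920) and the Gcm pathway (0.627) lie highest in the pooled list, the latter below mitochondrial ribosomal protein genes (0.515) once gcm2 is left out (0.495), and dynein heavy chains (0.0690) lowest.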

How the data were processed

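ChIP-seq candidate lists of the 2 libraries were used in genome build dm6. Per the README files deposited by the authors, alignments of 1 replicate and a control went into each replicate's list, alignments of both into the pooled list, and these 3 lists into the final IDR list. Names and versions of the aligner and caller, and the IDR cut-off, were not given in the sources used here. The signal is the authors' enrichment value per region. The −log10 q-value and the summit offset are also as deposited by the authors. Read depth is unknown, so intervals (95% Wilson) and the limit at a count of 0 (3 counts) cover counting error only. Lists in dm3 were not used here.

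Summits were set against the Ensembl 115 annotation and the Release 6 sequence of RefSeq, after checking that region ends lay within the reference lengths. Coordinates are 1-based. Each summit had 1 class: promoter (within 500 bp of a TSS), coding exon, UTR, other exon, intron or intergenic. Starts of annotated transposable elements were not counted as TSSs. Exon position was read on the transcript with the longest CDS that holds the summit. Windows reached 100 bp to each side, and support meant a summit within 100 bp. Gene densities are per kb of coding sequence over 500 bp from a TSS. Densities from GC used bins of GC content and the coding grid of 200 bp steps.

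With 1 group of 2 libraries and no control list no test was run, and each value was recomputed in each replicate's list. The labels call the libraries biological replicates but name no separate collections, so their spread may be technical. Of 976 symbols written in the 27 gene groups, 966 were found, some under newer names. Those not found were left out: Dl (Notch pathway), argos (receptor tyrosine kinase pathway), nos (segmentation), fas (neuron and axon guidance) and sh (ion channel). So were Mtor and mtor (nuclear pore) and kl-2, kl-3 and kl-5 (dynein heavy chain). The giant muscle and cytoskeleton group also holds the mucin gene Muc14A, and some groups share genes. Genes were named by rule: hosts of IDR-retained regions and of the 15 strongest, genes of most candidates and of most per kb among those with 5 or more, gcm, gcm2 and hosts in the Gcm and glia groups, and the 3 strongest hosts of each other group; tgo, Ehbp1, pum, CG6191, 18w and Muc14A were named after their values were seen. Members and lists were chosen with earlier results of these data known. Scripts (Python 3.11.15, NumPy 2.4.6, pandas 2.3.3, SciPy 1.17.1) were tested on simulated sequence. Alternatives changed the TSS distance, the support distance, the windows and the replicate.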

Additional observations from a re-analysis of the deposited data

How the results depend on the processing

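No paired analysis was possible because both libraries belong to 1 group. Each replicate's own list in place of the pooled one gave ranges of 13.6 to 19.0% for the coding share, 220 to 306 candidates per Mb, 5.21 to 5.86% with q at or below 0.05, a median rank of 18444.5 to 19707.5, 53.9 to 55.3% GC, 66.7 to 67.6% GC at the third codon position, 27.1 to 28.4% in last coding exons, 3194 to 3949 host genes and 2.12 to 2.20% with a GCM octamer. Support in a single replicate was 43.6 to 55.5%, and 0.101 to 0.183% matched the strongest regions of a single replicate, as many as the final list holds. Leaving out 1 of 2 libraries leaves no spread.

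Restricting candidates to those with q at or below 0.05 changed most: 169 remained in 160 genes, the coding share fell to 2.48%, the density to 9.08 per Mb (40.9 in introns) and the median rank to 5450.0, while 2.96% were retained by IDR and 72.2% supported by both replicates. GC was then 56.6% (69.0% at the third codon position), the octamer share 1.78% and the share in last coding exons 24.9%, which is below the grid (25.6%), unlike the 28.6% over all 4932. Requiring the whole region in CDS gave a share of 6.90%, 2.51% with q at or below 0.05, 16.6% supported by both, 56.5% GC (66.5% at the third position) and 1692 host genes. The density was then 111 per Mb of all coding sequence over 500 bp from a TSS. That sequence includes exons too short to hold a whole region, so this density is not comparable with the 191 in introns. A TSS distance over 1000 bp gave a share of 11.1%, 2.62% with q at or below 0.05 and 67.03% GC at the third position. A distance over 250 bp gave 4.16% with q at or below 0.05 and 27.6% in last coding exons. Support by both replicates was 11.2% within 50 bp, 32.0% within 250 bp and 39.6% for any overlap. Windows of 50 and 200 bp to each side gave octamer shares of 1.26 and 4.16% (0.797 and 3.11% on the grid), and the wider window gave 53.7% GC (50.9% on the grid). The wider window holds more bases, and the restrictions hold fewer candidates; the cause of the other shifts was not tested. GC and octamer shares stayed above the grid with both windows and with the 1000 bp distance, for which the grid was recomputed. For the q-value and whole-region settings only the unrestricted grid was at hand (51.9% GC and 1.59% with an octamer), which is not matched to them. The octamer share with q at or below 0.05 rests on 3 regions. GAGAGAG was at 2.27% in candidates and on the grid with the wider window. Counting starts of transposable elements as TSSs, added after seeing the data, left 4906 candidates and moved none of 5 results beyond the spread between replicates. Leaving out gcm2, also added later, lowered the Gcm pathway from 0.627 to 0.495 per kb.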
